A study of Mus musculus with 9 samples.

Results

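The RNA of red blood cells was followed through 6 genes in mouse cortex: the adult alpha-globin genes Hba-a1 and Hba-a2, the adult beta-globin genes Hbb-bs and Hbb-bt, Alas2 and Slc4a1. They were chosen by symbol, and each matched 1 of the 18820 genes in the deposited table. The cortex was taken from C57BL/6J embryos at embryonic day 18.5. The 3 groups were wild type (WT), heterozygous for a Cyfip2 mutation (Het) and homozygous for it (KO), with 3 libraries each, and no treatment is named in the labels. The Cyfip2 protein belongs to the WAVE complex, a regulator of branched actin. Neither the mutant allele nor the number of embryos behind each group is described in the labels. All p-values therefore refer to the spread among libraries, which may be technical.

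Haemoglobin carries oxygen as a tetramer of alpha-type and beta-type globin chains, each holding a heme group. Erythroid precursors make globin mRNA in very large amounts under transcription factors such as GATA1 and KLF1, and young red cells that have lost their nucleus still carry it. Alas2 encodes the erythroid form of 5-aminolevulinate synthase, the first enzyme of heme synthesis, and Slc4a1 encodes band 3, the anion exchanger of the red cell membrane. In brain tissue, RNA of these genes is commonly read as RNA of blood left in the vessels, and low globin expression in neurons and glia has also been described. In bulk RNA, fewer blood cells and less RNA per blood cell cannot be told apart.

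The bases before the transcription start of the globin genes and Alas2, which lie on 3 chromosomes, are shown first. Any part of these bases in how the genes varied over the libraries was not tested. RefSeq entries on GRCm38.p6 were matched for 5 of the 6 genes, all but Slc4a1. Each line gives the 250 bases before the RefSeq start, 5′ to 3′ on the gene's strand. Capitals mark matches on either strand to GATAA (reverse TTATC, the core of GATA factor sites), CACCC (reverse GGGTG, the box that KLF1 can bind), CCAAT (reverse ATTGG) and TATAA (reverse TTATA).
Hba-a2, chr11:32296242-32296491, plus strand: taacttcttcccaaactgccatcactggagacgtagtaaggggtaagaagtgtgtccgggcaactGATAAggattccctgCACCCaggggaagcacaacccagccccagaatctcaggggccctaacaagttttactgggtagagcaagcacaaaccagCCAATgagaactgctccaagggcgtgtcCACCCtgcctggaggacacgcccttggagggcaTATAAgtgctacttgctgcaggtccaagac
Hbb-bs, chr7:103827929-103828178, minus strand: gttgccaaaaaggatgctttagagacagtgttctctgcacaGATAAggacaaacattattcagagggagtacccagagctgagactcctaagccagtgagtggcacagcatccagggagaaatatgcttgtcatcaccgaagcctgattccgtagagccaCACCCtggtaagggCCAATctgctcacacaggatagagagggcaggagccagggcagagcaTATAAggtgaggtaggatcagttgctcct
Hbb-bt, chr7:103813924-103814173, minus strand: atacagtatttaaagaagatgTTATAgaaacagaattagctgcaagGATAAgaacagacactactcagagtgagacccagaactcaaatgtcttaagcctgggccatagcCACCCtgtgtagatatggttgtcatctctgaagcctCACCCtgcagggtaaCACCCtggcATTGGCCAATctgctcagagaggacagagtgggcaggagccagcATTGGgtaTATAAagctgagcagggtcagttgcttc
Alas2, chrX:150547167-150547416, plus strand: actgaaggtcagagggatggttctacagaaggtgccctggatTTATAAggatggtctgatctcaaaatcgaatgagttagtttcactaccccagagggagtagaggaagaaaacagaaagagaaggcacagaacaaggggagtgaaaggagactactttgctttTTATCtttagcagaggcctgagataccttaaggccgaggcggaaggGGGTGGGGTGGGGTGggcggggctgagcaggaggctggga
The Hba-a1 window is not printed because 247 unbroken bases of it are the same as in Hba-a2. GATAA matched in all 5 windows, beside 22.6% of the 32851 RefSeq windows of this length. The CACCC box also matched in all 5, beside 52.0% of the windows. The CCAAT box was in 4 of the 5, all but Alas2, beside 33.8%. The fourth motif, TATAA, was in all 5 windows, beside 22.8%, and it began 30 bases before the start in Hba-a2, 29 in Hbb-bs and 28 in Hbb-bt, whereas the Alas2 match began 207 bases before it and overlapped a match on the other strand. In Hbb-bt a reverse match of the third motif adjoins a forward one, and the 3 reverse matches of the second motif in Alas2 adjoin one another. A match describes letters, not binding. GENCODE places the start of these genes further upstream, so that 161 bases of the Hba-a1 window, 3 of Hba-a2, 168 of Hbb-bs, 73 of Hbb-bt and 42 of Alas2 lie inside its genes.

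The paralogous genes are nearly identical in their coding sequence. The coding sequences of Hba-a1 and Hba-a2, 426 bases each, differ at 1 position and share an unbroken run of 380 bases. Those of Hbb-bs and Hbb-bt, 441 bases each, also differ at 1 position and share a run of 416 bases. The upstream windows of that beta pair are only 69.3% identical. Untranslated regions were not compared. Reads from the shared stretches could be split either way within a pair, which the sums of Hba-a1 with Hba-a2 and of Hbb-bs with Hbb-bt avoid.

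Values are normalized counts, the authors' gene counts divided by a size factor for each library. Totals were 36.0 to 38.6 M (M, mega), and the approximate depth lay between 29.3 M reads (KO replicate 1) and 54.4 M (WT replicate 2), so that 1 read was worth 0.676 to 1.23 normalized counts. Cyfip2, measured to check the labels, had means of 10562 ± 537 for WT libraries, 9543 ± 500 for Het libraries and 7893 ± 366 for KO libraries (SD, 3 libraries a group), with no overlap between groups (KO against WT, adjusted limma p 0.678), and the table cannot show whether the KO transcript is intact. Neurons of the cortex were present in every library, with summed markers of 67645 to 97175 led by Neurod6. Several libraries stood apart. Cdhr1, a mitral cell gene of the olfactory bulb, was at 2138 to 3436 in WT replicate 3, in Het replicate 1 and in replicates 1 and 2 of KO, and at 21.8 to 53.1 elsewhere. Y-linked RNA was near background in 3 of those 4 libraries, all but the WT one, and high in the other 6. Meningeal fibroblast genes summed to 515 in Het replicate 3 and to 12764 to 31213 in the others, and choroid plexus genes to 11905 in Het replicate 2 and 3511 in WT replicate 2 against 67.9 to 814.

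The 2 alpha-globin genes lie on the plus strand of chromosome 11 (GRCm38), Hba-a1 (ENSMUSG00000069919) from 32283511 to 32284465 and Hba-a2 (ENSMUSG00000069917) from 32296489 to 32297298. Hba-a1 was at 12724, 9968 and 9781 in the WT libraries, replicates 1 to 3. It was at 17828, 16611 and 15721 in Het. In KO it was at 21315, 6077 and 8333. All 3 Het libraries lay above all 3 WT libraries, while the KO libraries held both the highest value of the 9 and the 2 lowest.

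Hba-a2 was at 22069, 15584 and 14846 in WT, 26110, 24691 and 22044 in Het, and 35730, 9267 and 13170 in KO. The lowest Het library was just under the highest WT library, and KO again spanned the whole range. As a sum, alpha-globin RNA was 1.46-fold higher in Het than in WT, a log2 difference of 0.55, with no overlap between the groups. The exact permutation p was 0.1, two-sided, which is the smallest that 3 against 3 libraries can give.

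The beta-globin genes lie on the minus strand of chromosome 7, Hbb-bs (ENSMUSG00000052305) from 103826534 to 103828096 and Hbb-bt (ENSMUSG00000073940) from 103812524 to 103813996. C57BL/6 mice carry this pair, named s and t, in place of the major and minor genes of other strains. Hbb-bs was at 19955, 16458 and 12798 in WT, 26517, 20305 and 19603 in Het, and 30474, 8460 and 10797 in KO. Hbb-bt was at 7374, 4743 and 3566 in WT, 8410, 6501 and 5428 in Het, and 10353, 2777 and 3108 in KO. For both genes the Het and WT libraries overlapped. The beta-globin sum was 1.35-fold higher in Het than in WT, with an exact permutation p of 0.3.

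**Figure D1:**
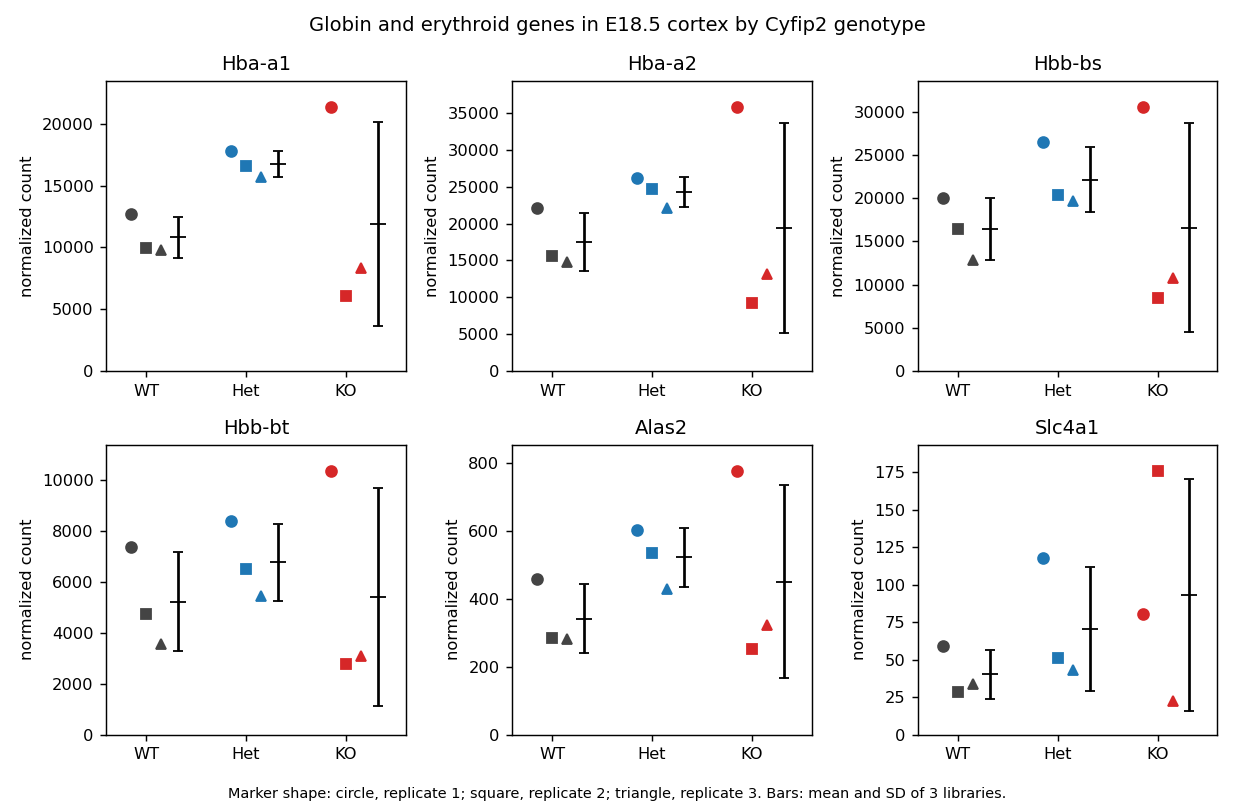
Normalized counts (vertical axes, from 0) of the 6 genes in the WT, Het and KO libraries, 1 point per library, with the mean and SD of 3 libraries beside them. The Het libraries of Hba-a1, between 15721 and 17828, all lie above the WT libraries, and KO replicate 1 is highest for every gene but Slc4a1, which is highest in KO replicate 2 at 176.

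The 4 adult globins together made up 0.0735% (KO replicate 2) to 0.272% (KO replicate 1) of the library totals, a 3.70-fold range inside 1 genotype. Their sums were 62121, 46754 and 40991 in WT, 78866, 68108 and 62796 in Het, and 97873, 26580 and 35408 in KO. The lowest Het library was only just above the highest WT library. The 1.41-fold difference of Het over WT had an exact permutation p of 0.1, and that of KO against WT, 0.918-fold, had 0.9.

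Per kilobase of exon, the mean levels over the 9 libraries were 30570 for Hba-a2, 23925 for Hbb-bs, 16196 for Hba-a1 and 8260 for Hbb-bt. They ranked 25, 32, 51 and 111 among all genes of the table on that scale. Neurod6, a transcription factor of cortical excitatory neurons, was at 11847 per kilobase and ranked 79. The Hba-a1 model has 812 exon bases against 667 for Hba-a2, so the size of the gap between those 2 levels depends on the annotation, while Hba-a2 was also the higher of them before division by length. Per kilobase, Alas2 at 182 ranked 7913 and Slc4a1 at 13.9 ranked 13623. The per-kilobase means of Hba-a2 and Hbb-bs differed by less than the SD of Hba-a2 in WT and in KO, and by more than both SDs in Het. Those SDs are over libraries, in which the 2 genes varied together, and do not measure the gap between them. Per kilobase, Hba-a2 was the higher in each of the 9 libraries. Before division by length Hbb-bs was the higher in WT replicate 2 (16458 against 15584) and Het replicate 1 (26517 against 26110).

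The embryonic globins, which primitive red cells of the yolk sac express before definitive erythropoiesis takes over, were at a few reads per library. Hba-x, the zeta-type chain, was at 5.75, 7.75 and 3.46 in WT, 15.2, 9.996 and 1.46 in Het, and 10.3, 4.01 and 3.52 in KO. Hbb-y, an epsilon-type chain, was at 8.68, 3.98 and 4.72 in WT, 19.1, 9.26 and 4.32 in Het, and 18.3, 3.35 and 1.89 in KO. Hbb-y amounted to 1.36 to 5.46 for every 10000 of the adult beta-globins and Hba-x to 0.387 to 3.46 for every 10000 of the adult alpha-globins. Both had a mean under 10 and were left out of the fit across genes. Hbb-bh1, Hbb-bh2 and Hbb-bh0 are not among the genes of the deposited table.

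Alas2 (ENSMUSG00000025270, X chromosome, 150547375 to 150570638, plus strand) followed the globins at 6.10 to 9.52 counts for every 1000 of theirs. It was at 459, 285 and 281 in WT, 602, 533 and 430 in Het, and 776, 253 and 322 in KO. The Het and WT libraries overlapped, since the lowest Het library was under the highest WT library, and KO spanned both. Alas2 lies on the X chromosome, and the 3 libraries without Y-linked RNA held its highest 2 values, 776 and 602, and its lowest, 253.

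Slc4a1 (ENSMUSG00000006574, chromosome 11, 102348824 to 102366203, minus strand) was the exception. It was at 59.1, 28.3 and 33.9 in WT, 118, 51.0 and 42.9 in Het, and 80.7, 176 and 22.4 in KO. Its highest value was thus in KO replicate 2, the library with the lowest value of each of the other 5 genes. The 3 genotypes overlapped.

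None of the 6 genes passed the test between genotypes in limma's fit. In KO against WT, 0 of 6 passed an adjusted p of 0.05, as did 0% of the 15069 genes tested. In Het against WT the count was again 0 of 6, with 0% of all genes, and in KO against Het 0 of 6, with 0%. At an unadjusted p under 0.05 the members also numbered 0 in each comparison, where 1.18%, 1.61% and 3.59% of all genes stood in the same order. That count depended most on KO replicate 1, the library highest in globins. Without it 4 of 6 in KO against WT, 4 in Het against WT and 5 in KO against Het had an unadjusted limma p under 0.05. All genes stood at 1.53%, 1.39% and 2.89%. The adjusted p of the members was still at least 0.936. Without KO replicate 3, Slc4a1 had an unadjusted limma p of 0.0179 in KO against WT, beside 5.34% of all genes under 0.05. With the replicate number as a block, Alas2 had 0.0322 in Het against WT, beside 3.27%. No member's adjusted limma p was under 0.814 in the former or 0.991 in the latter.

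In Het against WT all 6 fitted log2 fold changes were positive, from 0.42 for Hbb-bt to 0.71 for Slc4a1, with a median of 0.56 beside -0.01 over all genes. Hba-a1 had 0.64 ± 0.38 (SE) with a 95% interval from -0.23 to 1.5, and Alas2 0.63 ± 0.39 with -0.25 to 1.52. Of the 6, only Hba-a1 had no overlap with all Het libraries higher, as 3.36% of all genes tested did, beside 3.31% with all Het libraries lower. In a fit of Het and WT alone 4 of 6 had an unadjusted limma p under 0.05, beside 1.81% of all genes. With sex as a covariate the globins were at 0.20 to 0.54 and Slc4a1 at 0.10. The smallest adjusted p of any gene in this comparison was 1.00.

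In KO against WT the log2 fold changes of the globins ran from -0.20 ± 0.42 for Hbb-bs to -0.07 ± 0.38 for Hba-a1. Those of Alas2, 0.26 ± 0.39, and Slc4a1, 0.82 ± 0.70, were positive with intervals from -0.62 to 1.14 and from -0.78 to 2.42. Single KO libraries set these values: without KO replicate 2 the 4 globins were at 0.17 to 0.33 and Slc4a1 at 0.15, and without KO replicate 1 the globins were at -0.77 to -0.59 and Alas2 at -0.22. The 6 genes had a median of -0.07 beside 0.00 over all genes. With sex as a covariate the globins were at -0.59 to -0.26, Alas2 at -0.0039 and Slc4a1 at -0.41. The intervals leave room for more than a 1.5-fold difference either way, so the data do not show that KO and WT were alike. No member was free of overlap, against 3.17% of all genes with KO higher and 3.30% with KO lower.

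In KO against Het, 5 of 6 log2 fold changes were negative, from -0.70 ± 0.38 for Hba-a1 to -0.37 ± 0.39 for Alas2, and that of Slc4a1 was 0.11 ± 0.70, or -0.11 after quantile normalization. The median was -0.57 beside 0.00 over all genes. Again no member was free of overlap, against 3.15% of all genes with KO higher and 4.68% with KO lower. This comparison shares its libraries with the other 2. With the replicate number as a block, 1 of 6, Hba-a1, had an unadjusted limma p under 0.05 (0.0470, adjusted 0.673), beside 6.53% of all genes. Without KO replicate 1 the Hba-a1 value was -1.23, and without KO replicate 2 it was -0.33.

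**Figure D2:**
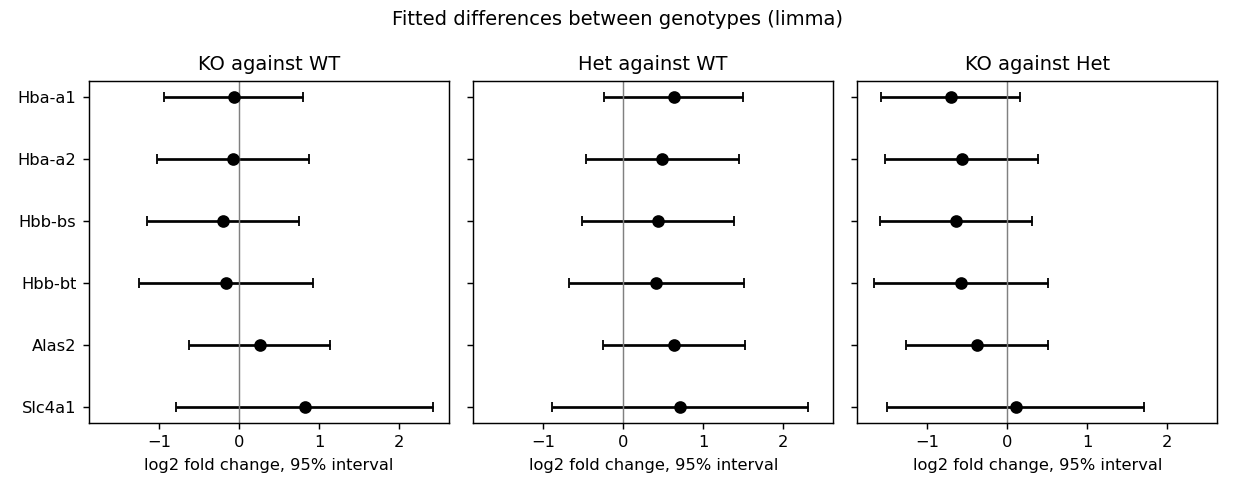
Fitted log2 fold changes (horizontal axis) of the 6 genes in each comparison of genotypes, points with 95% intervals from limma. All 18 intervals cross 0, and all 6 points of Het against WT lie to the right of it.

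The spread that these tests were set against was wide. Within a genotype the SD of the log2 values was 0.56 for Hba-a1 and Alas2, 0.61 for Hba-a2 and Hbb-bs, 0.70 for Hbb-bt and 1.01 for Slc4a1, beside a median of 0.149 over all genes. Between 89.9% and 96.8% of genes varied less than each of them. Most of it came from KO, where the log2 SD of the 4-globin sum was 0.99, against 0.31 in WT and 0.17 in Het.

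Ratios were taken inside each library, where its scaling cancels. The ratio of alpha-globin to beta-globin RNA stayed between 1.21 and 1.55 in the 9 libraries while the amounts varied 3.70-fold. Hbb-bt stood at 0.277 to 0.370 of Hbb-bs. Of 18 comparisons of 6 ratios between genotypes, none passed after adjustment, and 3 against 3 libraries allow no exact p under 0.1.

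For 2 ratios the genotypes separated. Hba-a1 stood at 0.673 to 0.713 of Hba-a2 in Het, above the 0.577 to 0.659 of WT and the 0.597 to 0.656 of KO. The log2 difference of Het over WT was 0.14, with an exact permutation p of 0.1 and 0.45 adjusted over the 18, and the division of reads between these near-identical genes is uncertain. Alas2 per 1000 globin counts was 7.38, 6.10 and 6.86 in WT, 7.63, 7.83 and 6.84 in Het, and 7.93, 9.52 and 9.08 in KO. Every KO library was above every library of the other genotypes, by 0.38 on the log2 scale over WT and 0.25 over Het. Both exact permutation p-values were 0.1, or 0.45 adjusted. That ratio kept its sign without any 1 of the libraries, between 0.31 and 0.46 for KO against WT. Across the 9 libraries the 2 with the least globin RNA, KO replicates 2 and 3, had the highest ratio.

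**Figure D3:**
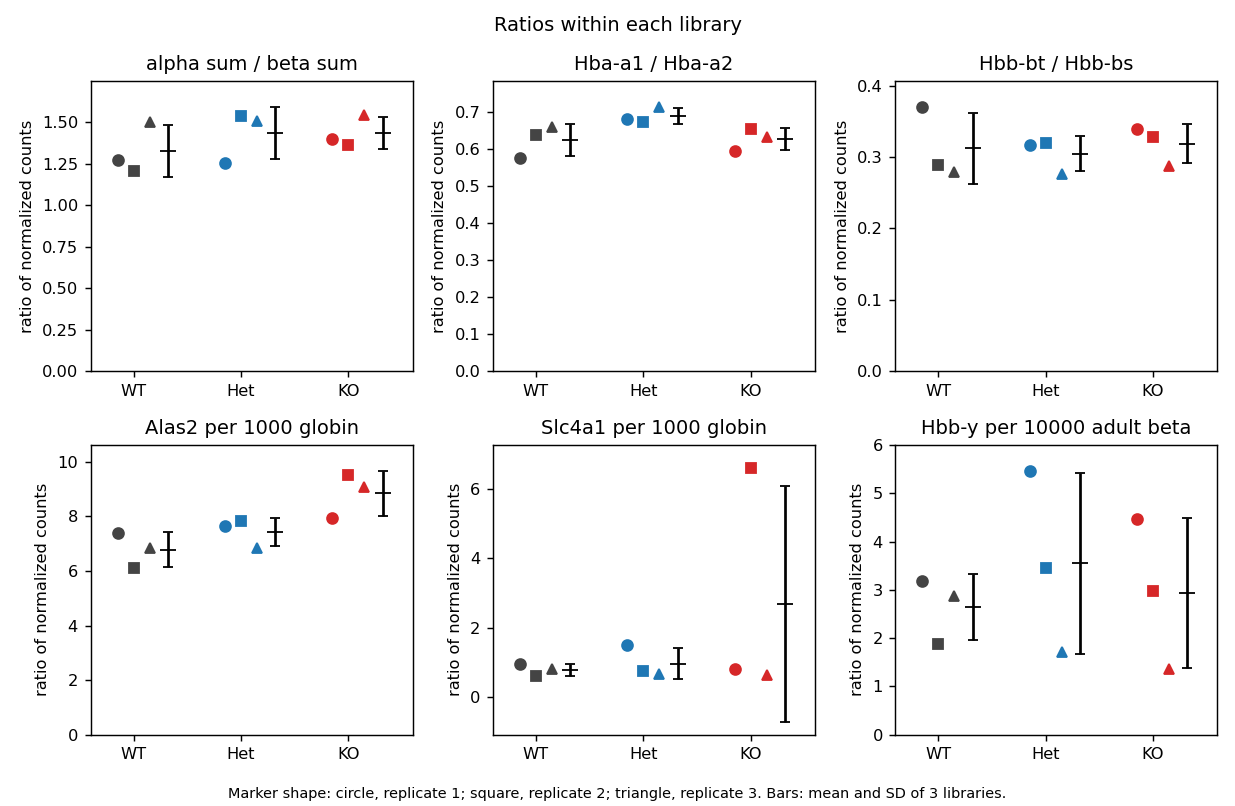
Ratios of normalized counts within each library (vertical axes) by genotype, 1 point per library, with the mean and SD of 3 libraries. Alas2 per 1000 globin counts is 7.93 to 9.52 in KO and 6.10 to 7.83 in the other libraries, and Slc4a1 per 1000 globin counts is 6.62 in KO replicate 2 and 0.606 to 1.5 elsewhere.

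Over the 9 libraries the globins and Alas2 varied together. Pearson's r of their log2 values was 0.912 to 0.987 in the 10 pairs without Slc4a1, and Spearman's rho 0.933 to 1.00. Each of these 10 r had an exact permutation p, adjusted over 15 pairs, of at most 0.000868. Without the 2 libraries farthest from the median of the first gene, r was still 0.864 to 0.992. The points are the same 9 libraries for each pair and share their size factors. In the 6 libraries with Y-linked RNA, a choice made after the data were seen, these r were 0.764 to 0.968, and 5 of the 10 pairs missed the threshold (exact permutation, adjusted p 0.0671 to 0.0792). The 4 libraries with and 5 without olfactory bulb RNA are too few for an r of their own.

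Slc4a1 did not take part. Its r with the other 5 genes was 0.0782 to 0.281, with adjusted exact permutation p of 0.625 to 0.840. All of this rested on KO replicate 2. Without that library the 5 r were 0.860 to 0.903, with adjusted exact permutation p of 0.00396 to 0.00697.

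**Figure D4:**
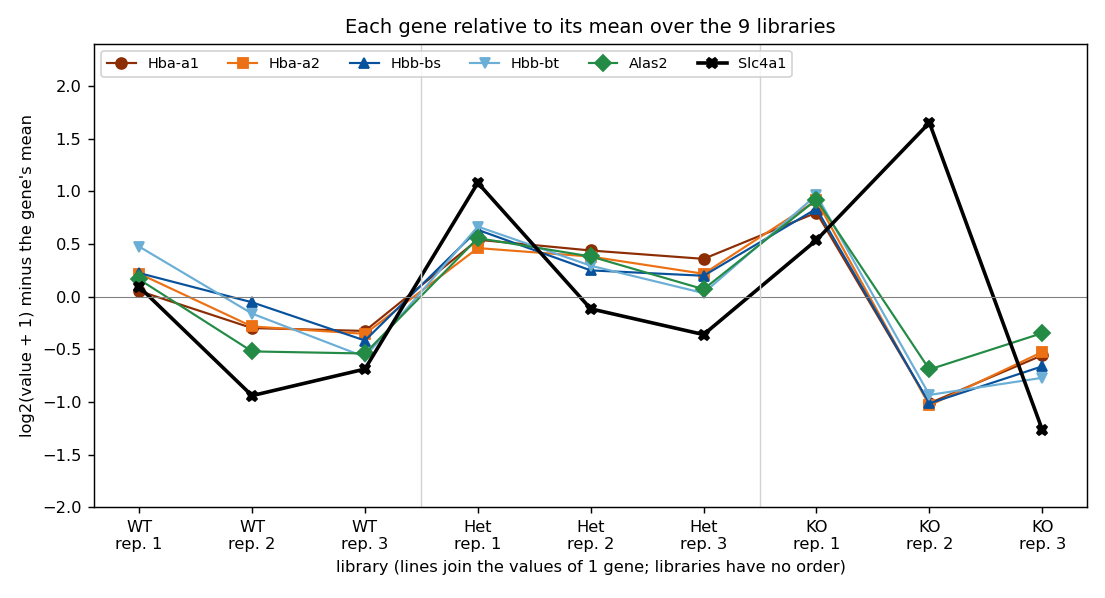
log2(value + 1) of each of the 6 genes in each library, minus that gene's mean over the 9 libraries (vertical axis), with lines joining the values of 1 gene. The 4 globins and Alas2 run close together, and Slc4a1 departs from them in KO replicate 2, where it is highest and they are lowest.

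KO replicate 2 also stood out for other erythroid genes, which were singled out after their values were seen. Among the listed genes of red cell membrane, erythroid transcription and red cell maturation, 13 had a mean under 10 and so were not in the fit. KO replicate 2 held the highest value of 8 of the 13, Het replicate 1 of 3, and KO replicate 1 and WT replicate 2 of 1 each. Nfe2, a transcription factor of erythroid cells and megakaryocytes, was at 33.3 there against 10.5 in the next library. Epb42, a membrane skeleton protein that binds band 3, was at 15.4 against 6.60, and Rhag, a Rh-associated membrane protein, at 9.11 against 5.07. Gata1 reached only 3.34, a few reads. The 13 summed to 120 in KO replicate 2, against 74.3 in Het replicate 1, 48.5 in KO replicate 1 and 18.0 to 31.6 in the other 6. Trim10, an erythroid ubiquitin ligase, and Klf1, a transcription factor of globin genes, were highest in Het replicate 1, at 26.9 and 14.9. The same library, KO replicate 2, had the highest sum of hypoxia response genes, 22699 against 14736 to 17441 elsewhere, and Vegfa at 6629 against at most 4427. Ndrg1, the gene of highest mean in that list, was not raised there, at 4382 against 3801 to 6200 elsewhere. The part of the hypoxia response genes in the Slc4a1 value was not tested.

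**Figure D5:**
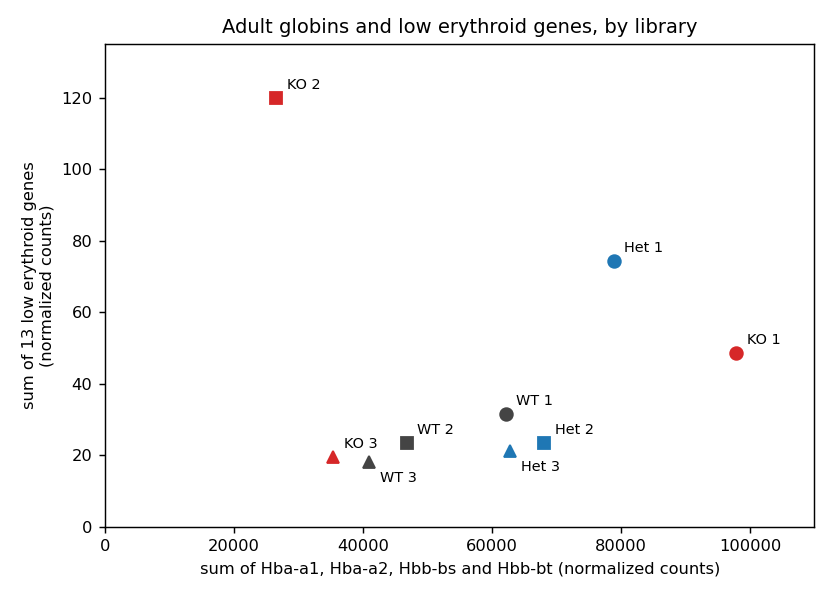
Sum of 13 erythroid genes of low level (vertical axis) against the sum of the 4 adult globins (horizontal axis), both in normalized counts, 1 point per library. KO replicate 2 has the lowest globin sum, 26580, and the highest sum of the low genes, 120.

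As lists, other genes of the red cell programme had lower median log2 fold changes in Het against WT than any of the globins. No gene of the 5 lists below passed the threshold in any comparison (limma, smallest adjusted p 0.942). Of 12 tested heme synthesis genes besides Alas2, 5 had positive and 7 negative log2 fold changes in Het against WT, with a median of -0.03. Their sum was steady at 11137 to 11964 over all 9 libraries. The most abundant were Abcb6, a porphyrin transporter, with 1495 ± 81.7 in WT and 1580 ± 67.7 in Het, Ppox, an enzyme late in the pathway, with 1395 ± 127 and 1417 ± 133, and Alas1, the housekeeping form of the first enzyme, with 1324 ± 41.8 and 1280 ± 69.3 (SD, n = 3). All 4 heme breakdown genes had negative values in Het against WT, with a median of -0.17, led in level by Hmox2, a heme oxygenase, and by the biliverdin reductases Blvra and Blvrb. None of the 4 passed.

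Of 17 red cell membrane genes 11 were tested, with 5 positive and 6 negative values in Het against WT and a median of -0.03. The leading genes Add2, Epb41 and Dmtn encode membrane skeleton proteins that neurons also express. Epb41 was at 6412 ± 713 in WT and 7356 ± 256 in Het, a log2 fold change of 0.20 ± 0.08 with an unadjusted p of 0.0295 and an adjusted limma p of 1.00. Of 9 erythroid transcription factors 5 were tested, with a median of 0.11, and Bcl11a, Ldb1 and Lmo2 led them. Of 19 genes of red cell iron and maturation 16 were tested, with 9 positive and 7 negative values, a median of 0.05, and Prdx2, Mkrn1 and Xpo7 at the top. In KO against WT the medians of these 5 lists were -0.04, 0.06, 0.04, 0.06 and 0.15, in the order given.

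Genes outside the 6 were ranked by how closely their log2 values over the 9 libraries followed the mean of the 6. Leaving out the members themselves and gene models without a proper name, the 10 highest Pearson r among the 15069 genes tested were those of Rbbp8 (0.943), Cep152 (0.941), Srsf6 (0.935), Exo1 (0.932), Trim59 (0.927), Eomes (0.926), Kif20b (0.925), Pold1 (0.919), Srsf9 (0.916) and Cdh24 (0.916). Eomes, a transcription factor of intermediate progenitors, is also in the olfactory bulb list. These r are a description over 9 libraries that share size factors and tissue content. Their ranges were far narrower than those of the globins, 1.11-fold to 2.62-fold from lowest to highest library. Among the listed erythroid genes, Ube2l6, a ubiquitin-conjugating enzyme, had the highest r, 0.846, and Ldb1, a cofactor in GATA1 complexes, 0.796. Others went the other way, down to -0.822 for Dmtn. Negative r were found for 5 of 12 heme synthesis, 2 of 4 heme breakdown and 4 of 11 red cell membrane genes. They were found for 0 of 5 erythroid transcription factors and 3 of 16 iron and maturation genes, beside 7128 of all 15069 genes. The median r of these lists was 0.170, -0.0037, 0.0473, 0.335 and 0.413, in the same order, beside 0.0349 over all genes.

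Markers of other cells that blood or vessels bring were set beside the globins. Endothelial genes summed to 15585 to 17251 in WT, 9525 to 20916 in Het and 17952 to 24548 in KO, led by Slc2a1. Pericyte and smooth muscle genes summed to 7797 to 8664, 5702 to 10252 and 8989 to 11512, led by Rgs5. Macrophage and microglial genes summed to 3270 to 3947, 1360 to 5086 and 3259 to 5631, led by Mrc1. In KO replicate 1, the library with the most globin RNA, the endothelial, pericyte, macrophage and meningeal sums were each the highest of the 9. KO replicate 2, the library with the least globin RNA, had sums of 19428, 8989, 3977 and 19026 in the same order, each above every WT library. Het replicate 3 had the lowest of all 4 sums. Its Hba-a1 value, 15721, was above every WT library, and its values of the other 5 genes were below the highest WT library. The part of these cell types in the globin values was not tested. In KO against WT, log2 fold changes were positive for 15 of 15 endothelial, 10 of 10 pericyte, 11 of 12 macrophage and 11 of 11 meningeal genes. The medians were 0.32, 0.34, 0.16 and 0.52, beside -0.004 over all genes. In Het against WT they were negative for 14 of 15, 9 of 10, 11 of 12 and 11 of 11, in the same order. The medians there were -0.09, -0.08, -0.40 and -1.24, beside -0.01 over all genes. None of these genes passed the threshold in either comparison. The Het values include Het replicate 3. In Het replicates 1 and 2 the endothelial sums (20916 and 17516) were above every WT library. So were their pericyte sums (10252 and 8866) and meningeal sums (25632 and 16658). The macrophage sum was above every WT library in Het replicate 1 (5086) and below every WT library in Het replicate 2 (3250).

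Other blood cells were read from 2 lists. Of 8 platelet genes Gp1bb, whose locus adjoins a gene expressed in neurons, gave 419 to 595 of summed levels of 497 to 663, and Ppbp, Gp9, Gp1ba, Treml1, Gp6 and Tubb1 were at 0 in at least 1 library. White blood cell genes summed to 2214 to 2915, of which Coro1a gave 1998 to 2795, while the neutrophil genes Camp, Elane and Mpo were at 0 in at least 1 library and at most at 4.86. The neutrophil genes S100a9, S100a8, Ngp and Ltf were above 0 in every library, at 8.05 to 35.5, 1.96 to 25.2, 0.952 to 15.5 and 0.930 to 9.14.

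The differences were also read within libraries of like tissue content or sex. Among the 5 libraries without olfactory bulb RNA, Hba-a1 was at 9968 and 12724 in WT, 15721 and 16611 in Het and 8333 in KO. Among the 4 with it, the values were 9781 in WT, 17828 in Het, and 6077 and 21315 in KO. In the 6 libraries with Y-linked RNA the 4 globins summed to 40991 to 62121 in WT, 62796 and 68108 in Het and 35408 in KO. The WT group holds no library without Y-linked RNA, so the comparison could not be made there. The Hbb-bt mean without olfactory bulb RNA was 5965 in Het and 6059 in WT. These sets hold too few libraries for a test.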

How the data were processed

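RNA was measured in 9 cortex libraries prepared from polyadenylated RNA (TruSeq Stranded mRNA, per the labels' protocols). Software named in the submitters' processing notes, without its role, was DESeq2 1.19.11, Salmon 0.11.2 and R 3.6.0, with GRCm38 as the genome. The deposited table holds a signal per gene, gene counts that the authors scaled by a size factor for each library, as the file headers and values show. Low values fell in steps of 1 read, but only 59.5% to 78.0% of those under 6 lay within 0.1 of a whole step, so reads were not recovered and count tests were not used. Gene symbols came from GENCODE M21 for 18783 of 18820 IDs.

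Differences were fitted to log2(value + 1) with limma 3.58.1 under R 4.3.3 (lmFit, eBayes with trend), with a mean for each genotype and all 9 libraries in the model. The 15069 genes whose mean reached 10 were tested, two-sided, with Benjamini-Hochberg adjustment over all genes and a threshold of 0.05. Fold changes on this scale understate those of low genes. Sums and ratios were compared by exact permutation of 3 against 3 libraries, and correlations by exact permutation of the pairings. The fit was tested on simulated data. Deviations of same-numbered Het and KO libraries from their genotype means had r of 0.453, 0.104 and 0.469. The second was below the r of Het replicate 1 with KO replicate 2 (0.119) and Het replicate 2 with KO replicate 1 (0.146). Het and KO replicate 1 both held olfactory bulb RNA, and replicate 3 of both did not. Same-numbered pairs with WT had r of -0.07 to 0.25. The numbers were therefore not shown to pair libraries, and the main fit and the exact tests left them unpaired. Sex and olfactory bulb content were read from marker genes.

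The members and lists were chosen with earlier results of these data known. Named genes were Cyfip2, the 6 members and the embryonic globins. To them were added the 3 tested genes of highest mean in each of the 5 red cell lists. The 10 genes most like the members' mean were named too (gene models without a proper name left out). From each marker list the gene of highest mean was named, except for meningeal fibroblasts, choroid plexus and Y-linked genes. Others are named as chosen after their values were seen: Cdhr1, Vegfa, Ube2l6, Ldb1 among those most like the mean, the 13 low erythroid genes, Trim10, and the platelet and neutrophil genes. Alternatives were other pseudocounts, filters and scalings, a fit to the compared genotypes alone, a replicate block, robust eBayes, sex as a covariate and leaving out each library.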

Additional observations from a re-analysis of the deposited data

How the results depend on the processing

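In the limma fits 0 genes passed in each comparison, and fitting the compared genotypes alone gave 1 in Het against WT and 1 in KO against Het. Leaving out 1 library gave 0 to 1 in each comparison, and no member was ever among them. With the replicate number as a block 0 genes passed in each comparison. Deviations of same-numbered libraries correlated between 0.104 and 0.469 for Het with KO and between -0.07 and 0.25 for pairs with WT, and the block changed no call.

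Of 360 refits of the members' fold changes 341 kept their sign and their side of the threshold and 19 reversed, and the 6 signs of Het against WT held in every refit. With sex as a covariate the log2 fold change was -0.0039 for Alas2 and -0.41 for Slc4a1 in KO against WT, and -0.51 for Slc4a1 in KO against Het, which was -0.11 after quantile normalization. The cause was not tested. Leaving out 1 library gave in KO against WT -0.59 to 0.31 for Hba-a1, -0.64 to 0.33 for Hba-a2, -0.76 to 0.17 for Hbb-bs, -0.77 to 0.18 for Hbb-bt and -0.22 to 0.59 for Alas2, and for Slc4a1 in KO against Het -0.57 to 0.89.

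Leaving out 1 library gave log2 differences in KO against WT of -0.62 to 0.32 for the alpha sum, -0.76 to 0.17 for the beta sum and -0.68 to 0.26 for the 4 adult globins. For ratios it gave -0.0881 to 0.0581 for alpha to beta (KO against Het) and -0.0481 to 0.0482 for Hba-a1 to Hba-a2 (KO against WT). For Hbb-bt to Hbb-bs it gave -0.0383 to 0.17 (KO against WT), -0.10 to 0.10 (Het against WT) and -0.00384 to 0.14 (KO against Het). For Slc4a1 to the globins it gave -0.11 to 1.55, -0.14 to 0.42 and -0.32 to 1.34, and for Hbb-y to the adult beta genes -0.12 to 0.47, -0.11 to 0.61 and -0.48 to 0.25, in the same order. With a pseudocount of 5 the last was 0.21 in KO against Het. The r of Slc4a1 with Hba-a1 ranged from -0.11 to 0.86, with Hba-a2 from -0.11 to 0.87 and with Hbb-bs from -0.11 to 0.90, highest without KO replicate 2 in each case. Correlated pairs of members numbered 10 to 15 without 1 library and 7 in the male libraries.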
